A study of Mus musculus with 40 samples.

Results

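The genes described here mark the macrophages of the mouse liver and the display of antigen to T cells. They are 36 genes of 40594 listed in both count tables, chosen by symbol, and fall into 4 classes: 11 genes of resident Kupffer cells, 11 of recruited macrophages, 10 that myeloid cells share, and 4 of major histocompatibility complex (MHC) class II. All 36 were found in both tables and passed the filter on low counts, which left 12930 genes. Whole-liver RNA came from 40 male mice aged 5 months, of strain C57BL6/J per the labels. The 20 wildtype (WT) mice and the 20 liver-specific PPARγ knockout (KO) mice each formed 4 groups of 5, named by diet and drug as control, Pio (pioglitazone in control diet), HFD (high-fat diet) and HFD-Pio (both). Pio is a thiazolidinedione that activates the nuclear receptor PPARγ. KO mice carried loxP-flanked PPARγ and Cre driven by the albumin promoter, which is active in hepatocytes. By this design Kupffer cells and other liver macrophages should keep the receptor in both genotypes, which was not measured in these cells. The WT mice were plain C57BL6/J and not littermates of the KO mice, and each genotype has its own count table, so levels were compared within a genotype. Each comparison asks whether Pio or HFD changed these genes, and whether that change differed between diets or genotypes.

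Kupffer cells line the liver sinusoids, take up bacteria, immune complexes and aged red cells from portal blood, and renew themselves within the liver. Under injury or lipid overload, blood monocytes that carry the chemokine receptor CCR2 enter in answer to its ligand CCL2 and mature into macrophages, some with a lipid-associated program that includes Trem2, Gpnmb, Spp1 and Cd9. Macrophages, dendritic cells and B cells present peptides on MHC class II, an α and β chain pair whose loading is guarded by the invariant chain CD74, and the transactivator CIITA switches these genes on together.

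Start regions were matched for 2 of the 4 class II genes, H2-Aa and H2-Eb1, and not for Cd74 or H2-Ab1. The windows below come from RefSeq promoters (build GRCm38.p6, 250 bases before to 50 after the start) and are shown because they hold, in capitals, the core of the X box (GCAAC) followed by the Y box (CTGATTGG), the elements bound by the RFX complex and by NF-Y. H2-Aa, the α chain gene of I-A, is on the minus strand at chr17:34287847-34287924, and H2-Eb1, the β chain gene of I-E, is on the plus strand at chr17:34305756-34305832.
H2-Aa: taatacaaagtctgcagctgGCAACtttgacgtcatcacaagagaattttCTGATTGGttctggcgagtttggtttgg
H2-Eb1: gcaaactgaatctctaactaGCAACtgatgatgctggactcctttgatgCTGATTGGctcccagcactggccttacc
The elements are 25 bases apart in H2-Aa and 24 in H2-Eb1. Promoters were matched for 28 of the 36 genes. With both strands searched, GCAAC followed by CTGATTGG on one strand within 40 bases was present in these 2 of the 28, against 0.164% of 32851 promoters in all. CTGATTGG alone was in 4.10% of all promoters and, among the 28, also in that of Spp1. GAGGAAGT, a motif of the PU.1 type, was in 3.20% of all promoters and in those of C1qc, Ctss, Ly6c2 and Spp1. A match describes letters and not a site in use.

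Libraries held 15788242 to 49857017 counts in WT and 21542958 to 28334251 in KO mice. For 5 mice the standard deviation of log2 expression from the median of their genotype was above 0.5, a limit set after seeing the data: WT control 832 (0.727), WT Pio 845 (0.570), WT HFD 829 (0.665), KO HFD 9 (0.624) and KO Pio 13 (1.57). The other 17 WT mice lay between 0.258 and 0.414 and the other 18 KO mice between 0.176 and 0.439. Values without these 5, or without 1 of them, are printed beside the main results below. Pparg itself was counted at 3.00 to 9.85 CPM (the usual unit of counts scaled to a common library size, here with TMM factors) in KO and 5.77 to 14.1 CPM in WT mice, and counts over the whole gene do not show the deleted part. The markers of hepatocytes summed to 72800 to 147000 CPM in WT and 33800 to 129500 CPM in KO mice, lowest in KO Pio mouse 13. In whole liver, fewer macrophages and less RNA of these genes per macrophage cannot be told apart.

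Kupffer cell genes were well covered in every mouse. As CPM per kilobase of exon (RPKM, mean of 40 mice), C1qb was at 68.6, Cd5l at 56, C1qa at 48.3 and Clec4f at 36.6. The C1q genes encode the chains of complement component C1q, Cd5l a secreted inhibitor of macrophage apoptosis and Clec4f the Kupffer cell lectin receptor. The other Kupffer cell genes ranged down to 3.82 RPKM for the haemoglobin scavenger receptor gene Cd163. All 11 reached 1 CPM in all 40 mice, and so did the 4 class II genes, led by Cd74 at 67.3 RPKM. Recruited macrophage genes were sparse: 7 of 11 averaged under 1 RPKM, and 3 of 11 reached 1 CPM in all mice. Spp1 (osteopontin, also made by bile duct cells) led that class at 17.3 RPKM, and the fractalkine receptor gene Cx3cr1 was lowest at 0.206 RPKM. The shared myeloid genes ran from 0.732 RPKM for Ptprc (CD45) to 30.8 RPKM for the lysozyme gene Lyz2. None of the 36 was at 0 in any mouse. The ratio of the highest to the lowest mouse was 4.72 to 19.9 over the Kupffer cell genes, 3.54 to 8.59 over the class II genes and 6.74 to 695 over the recruited genes, with Gpnmb at the top. The labelled tissue thus carries the defining Kupffer cell markers throughout.

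**Figure D1:**
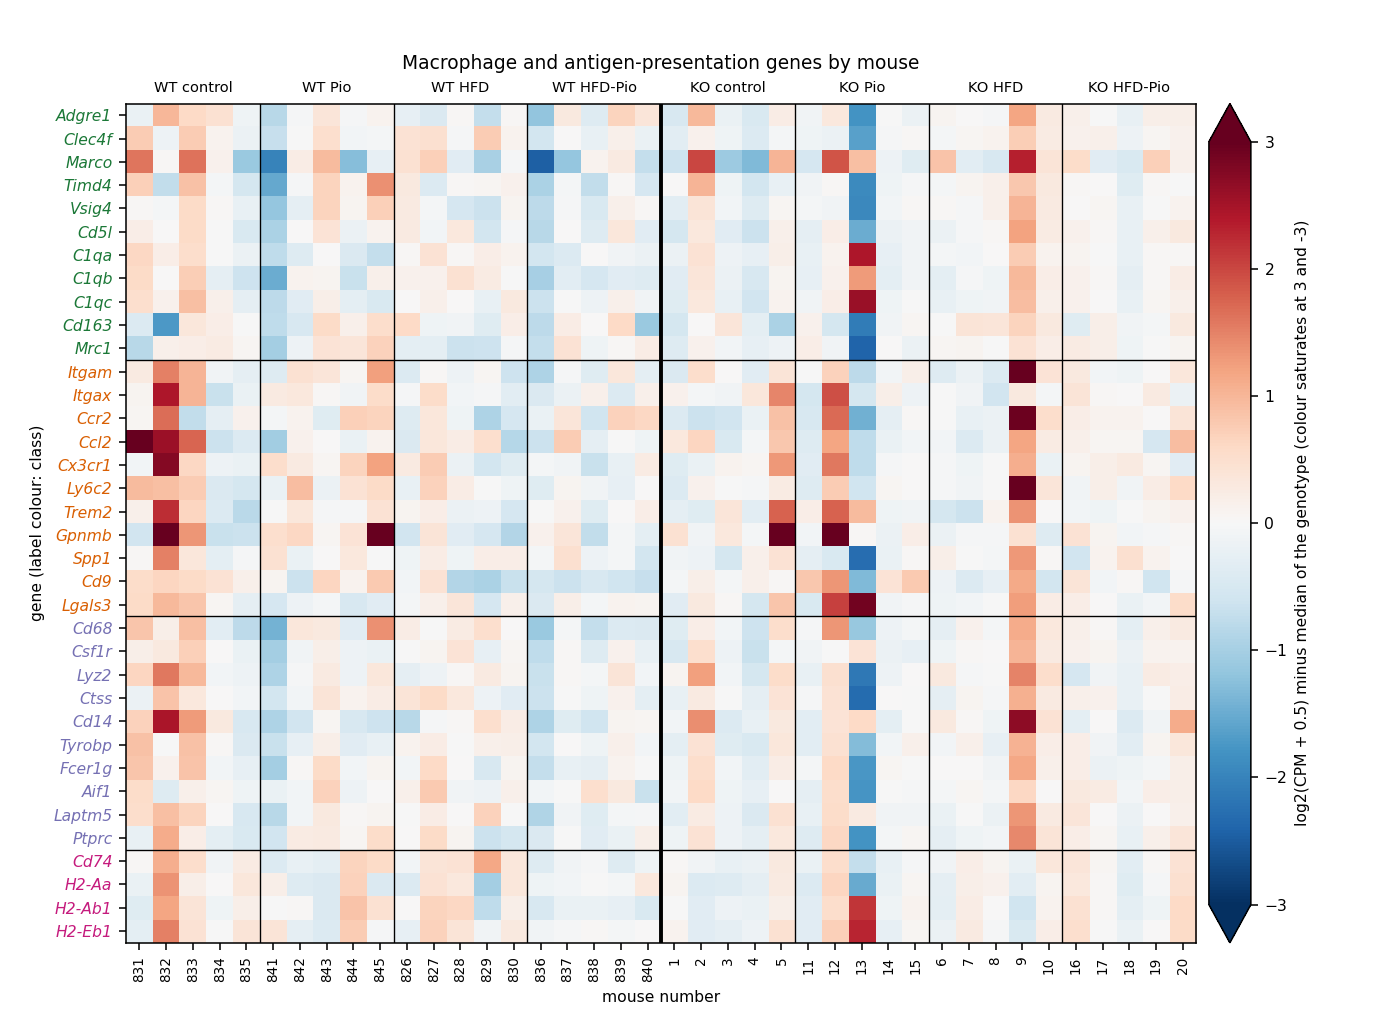
Heat map of the 36 genes (rows, label colour by class) in the 40 mice (columns, by group), as log2(CPM + 0.5) minus the median of the genotype. Single columns carry much of the colour: WT control mouse 832 was the highest WT mouse for 17 genes, KO HFD mouse 9 the highest KO mouse for 21, and KO Pio mouse 13 the lowest KO mouse for 23.

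On control diet, Pio lowered 2 of the 36 genes in WT mice, the monocyte chemokine Ccl2 and the lipopolysaccharide co-receptor Cd14, and raised 0 (edgeR quasi-likelihood test, adjusted p of at most 0.05). Of all genes tested, 3.89% were called in this comparison, so 2 of 36 is near the background. At an unadjusted p under 0.05 there were 5 of the 36, all lower, against 17.9% of all genes. DESeq2 called the same 2 genes (6.28% of all genes) and limma 0 (23.9%). By sign, 30 of the 36 were lower and 6 higher with Pio, where 47.5% of all genes were higher, with a median log2 fold change of -0.37 against -0.02 over all genes. The class medians were -0.35 for Kupffer cell, -0.34 for recruited, -0.41 for shared myeloid and -0.35 for class II genes. These rest in part on WT control mouse 832, since without it 21 genes were lower and 15 higher with a median of -0.08, and the recruited and class II medians were 0.11 and -0.03. Without the 5 mice 24 were lower and 12 higher with a median of -0.19, and the class medians in the same order were -0.37, 0.06, -0.43 and 0.03.

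Ccl2 was at 17.9, 9.27, 5.05, 0.552 and 0.754 CPM in WT control mice 831 to 835, and at 0.308, 1.3, 1.18, 0.933 and 1.27 CPM in WT Pio mice 841 to 845. The means were 6.71 ± 7.21 (SD, n = 5) and 0.998 ± 0.412 (SD, n = 5). Of the control mice, 3 were above every Pio mouse and the other two lay among them, so the groups overlap. The log2 fold change was -2.76 (SE 0.69) with an edgeR adjusted p of 0.0165, while the exact permutation test of the CPM values gave a two-sided p of 0.143, where the smallest possible with 5 against 5 is 0.00794. Without the 5 mice that stand apart, Ccl2 stayed lower at -2.71 (edgeR adjusted p = 0.0153), and without control mouse 831 it was at -1.99 (edgeR adjusted p = 0.101). Mouse 831 also had the highest summed neutrophil markers of the WT mice, 17.2 CPM against a WT median of 3.58 (3 of 4 markers passed the filter), and the part of those cells in the Ccl2 result was not tested. With limma and sample quality weights, the tool of the study, the Ccl2 difference was -0.02.

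Cd14 was at 7.22, 25.8, 11.1, 5.35 and 2.95 CPM in WT control and 2.03, 2.72, 4.53, 2.96 and 2.6 CPM in WT Pio mice. All control mice but 835 were above every Pio mouse. The means of 10.5 ± 9.07 (SD, n = 5) and 2.97 ± 0.936 (SD, n = 5) gave a log2 fold change of -1.82 (SE 0.52), with an edgeR adjusted p of 0.0363 and an exact permutation p of 0.0238. With those 5 left out it was -1.10 (edgeR adjusted p = 0.0695), and without control mouse 832 alone -1.16 (edgeR adjusted p = 0.214). The call was also lost without control mouse 833 or any 1 of Pio mice 841, 842, 844 and 845. With limma and quality weights it was -0.69 (adjusted p = 0.218).

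The call of the C1q genes depended on which mice set the spread. C1qa, which encodes the A chain, was at 65.1, 48.4, 61.1, 42 and 37.5 CPM in WT control and 24.6, 32, 42.8, 31 and 25.4 CPM in WT Pio mice. Here 4 of 5 Pio mice lay below the lowest control mouse, and mouse 843 among the controls. The log2 difference of -0.71 (SE 0.32) had an edgeR adjusted p of 0.234 and an exact permutation p of 0.0238. In the fit without the 5 mice it was -0.64 and called (edgeR adjusted p = 0.00843), as was C1qc at -0.64 (edgeR adjusted p = 0.0288). There 14.9% of all genes were called, against 3 of the 36. The other members below an unadjusted p of 0.05 were Lyz2 at -0.80 and Tyrobp, which encodes the DAP12 signalling adaptor, at -0.63. Among the other Kupffer cell genes, the log2 difference was -0.35 for Clec4f, 0.20 for the phosphatidylserine receptor gene Timd4, 0.05 for the complement receptor gene Vsig4, -0.15 for Cd5l and -0.94 for the scavenger receptor gene Marco, none of them called. WT Pio mouse 841 was the lowest of the 20 WT mice for 16 of the 36 genes.

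**Figure D2:**
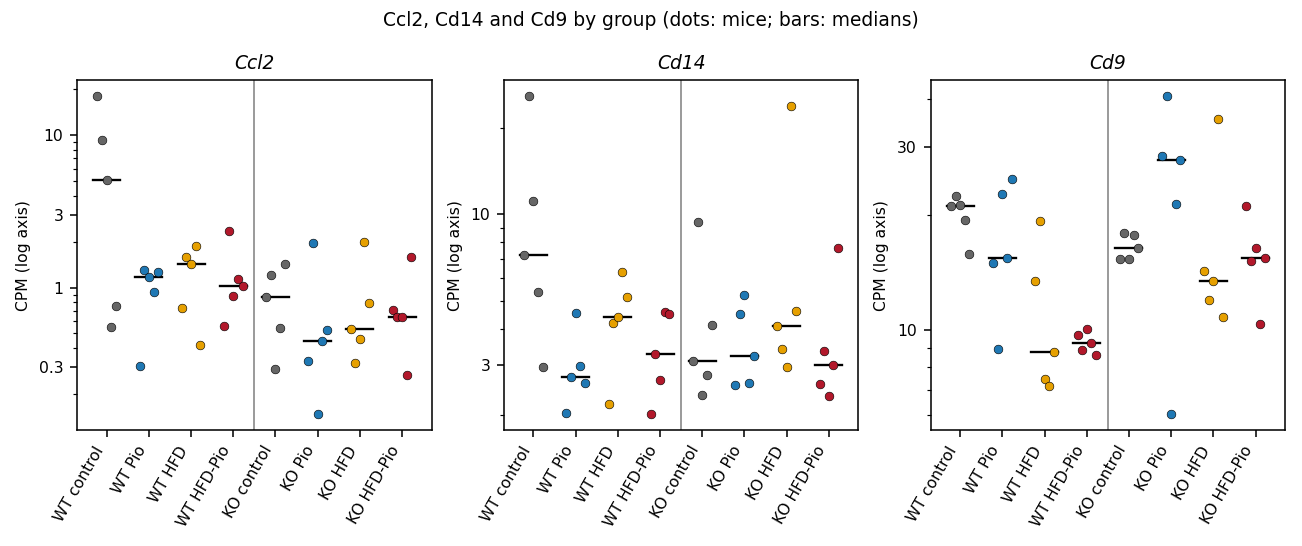
CPM (log axis) of Ccl2, Cd14 and Cd9 in each mouse by group, with bars at group medians. WT control mice spread from 0.552 to 17.9 CPM for Ccl2 and from 2.95 to 25.8 CPM for Cd14 while WT Pio mice stayed at or below 1.30 and 4.53 CPM, and Cd9 was below 10.2 CPM in all WT HFD-Pio mice.

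In WT mice on HFD, Pio left 4 genes lower in every treated mouse than in every untreated one, although edgeR called 0 of the 36 (1.08% of all genes called). These 4 were C1qa, C1qb, the lysosomal glycoprotein gene Cd68 and the lysosomal membrane gene Laptm5, and 7.13% of all genes had groups that did not overlap in either direction, so 4 of 36 is near the background. At an unadjusted p under 0.05 edgeR gave 3 of the 36, all lower, against 15.6% of all genes, and DESeq2 and limma called 0 (2.78% and 8.43% of all genes). Of the 36 genes 30 had a log2 difference below and 6 above 0 (47.9% of all genes above), with a median of -0.25 against -0.02 over all genes.

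C1qb, the B chain gene, was at 98, 98.4, 124, 108 and 90.2 CPM in WT HFD mice 826 to 830 and 45.1, 72.2, 63.5, 70.6 and 68.3 CPM in WT HFD-Pio mice 836 to 840. The highest treated mouse was below the lowest untreated one. The log2 difference was -0.70 (SE 0.29), with an exact permutation p of 0.00794, the smallest possible, and an edgeR adjusted p of 0.23. C1qa went from 43 to 57.1 to 28.9 to 42.5 CPM (-0.41), a gap of under 1 CPM between the groups. Cd68 was at 26.6 to 38.3 and 12.2 to 26 CPM (-0.72), and Laptm5 at 30.6 to 49.9 and 16.2 to 30.1 CPM (-0.47). Each had the same exact permutation p of 0.00794, from 36 such tests in this comparison. For the third chain the groups overlapped. C1qc was at 54.6, 59.99, 54.4, 46.1 and 66.3 and 34.6, 54.2, 49.2, 60.3 and 50.3 CPM, with a log2 difference of -0.18 (SE 0.35). The other gene below an unadjusted p of 0.05 among Kupffer cell genes was Clec4f at -0.52, with 71.9 to 124 CPM untreated and 49.5 to 81 CPM treated.

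None of the 4 class II genes was called with Pio on HFD in WT mice, and 1 was below an unadjusted p of 0.05. Their log2 differences ran from -0.71 to -0.02, with a median of -0.42. Cd74, which encodes the invariant chain, was at 94.3, 132, 136, 226 and 126 CPM without and 77.1, 93.1, 97.3, 77.1 and 92 CPM with Pio. The groups overlapped only in that treated mouse 838 was above untreated mouse 826. The log2 difference was -0.71 (SE 0.23), with an edgeR adjusted p of 0.123 and an exact permutation p of 0.0159. H2-Ab1, the β chain gene of I-A, was at 34.5, 54.3, 52.5, 19.97 and 38.6 CPM without and 24.2, 29.3, 29.7, 28.7 and 24.5 CPM with Pio (-0.55). WT HFD mouse 829, which stands apart, had the highest Cd74 and the lowest H2-Ab1 of its group. Without the 5 mice H2-Ab1 was at -0.71 and called (edgeR adjusted p = 0.0313), and Cd74 at -0.47 was not (edgeR adjusted p = 0.097), in a fit that called 11.4% of all genes. H2-Aa and H2-Eb1, whose start regions are printed above, differed by -0.02 and -0.29. Summed dendritic cell markers were 10.2 to 19.3 CPM without and 12.3 to 16.1 CPM with Pio, and B cell markers 2.69 to 6.91 and 1.86 to 2.73 CPM. Their part in the class II values was not tested.

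HFD without Pio moved 0 of the 36 genes in WT mice by edgeR (1.31% of all genes called), with 7 lower at an unadjusted p under 0.05 (13.2% of all genes), 2 called by DESeq2 (Ccl2 and Gpnmb, both lower, with 2.91% of all genes) and 0 by limma (2.53%). This comparison shares the control mice with the Pio comparison above. By sign 31 were below and 5 above 0 (50.2% of all genes above), and 25 and 11 without the 5 mice. The recruited genes were the lowest class, with all 11 below 0 and a median log2 difference of -1.16. That median was -0.19 without the 5 mice, among them WT control 832, the highest WT control mouse for 9 of the 11 recruited genes. Ccl2 at -2.47 (SE 0.68) had an edgeR adjusted p of 0.0579, with HFD mice at 0.73, 1.6, 1.42, 1.87 and 0.418 CPM. Gpnmb at -3.93 (SE 1.4) and Cx3cr1 at -1.55 (SE 0.68) rest on mouse 832, as set out with the recruited genes. The Kupffer cell genes had a median of -0.15 (-0.16 without the 5 mice). That of the class II genes turned from -0.22 to 0.13 without the 5 and to 0.14 without mouse 832 alone.

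Cd9, a tetraspanin of lipid-associated macrophages that other liver cells also express, was lower on HFD in both WT diet comparisons at an unadjusted p under 0.05. It was at 21, 22.4, 21.2, 19.4 and 15.8 CPM in WT control, 13.5, 19.3, 7.44, 7.16 and 8.78 CPM in WT HFD, 15, 8.94, 22.6, 15.4 and 24.7 CPM in WT Pio and 9.69, 8.89, 10.1, 9.27 and 8.6 CPM in WT HFD-Pio mice. With HFD, 4 of 5 mice were below all 5 control mice, and with HFD-Pio all 5 mice lay within a narrow band that reached into the WT Pio group only through mouse 842. The log2 difference was -0.83 (SE 0.33) for HFD against control (exact permutation p = 0.0159) and -0.90 (SE 0.33) for HFD-Pio against Pio (exact permutation p = 0.0317), with edgeR adjusted p of 0.224 and 0.175. Leaving out the 5 mice, the second was -0.74 and called (edgeR adjusted p = 0.0389, 7.07% of all genes called).

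In HFD-Pio against Pio mice of WT genotype, edgeR called 0 of the 36 genes (1.26% of all genes), with 4 lower at an unadjusted p under 0.05 (14.2% of all genes), 0 by DESeq2 (2.95%) and 2 by limma (Cd9 and Cx3cr1, both lower), which called 22.7% of all genes. The 4 were Cd9, Timd4 at -0.83, Gpnmb at -3.29 and Cd68 at -0.84. For the last 3 the highest Pio mouse was 845, with 20.1, 26.8 and 71 CPM.

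In KO mice on control diet, Pio raised 2 of the 36 genes by edgeR, C1qc and the galectin-3 gene Lgals3, and lowered 0, where 9.06% of all genes were called, a larger share than among the 36. Neither call was stable. Without KO Pio mouse 13, 1 of the 36 was higher at an unadjusted p under 0.05, a limit for which the share of all genes was not counted. At an adjusted p of at most 0.05, edgeR there called 0 of the 36 and 0.51% of all genes. It also called 0 of the 36 without any 1 of KO control mice 1 to 4 (1.66% to 3.02% of all genes), and in the KO genotype fitted alone, where it called 0 of all genes. The Lgals3 call was lost without KO Pio mouse 12 as well, and that of C1qc without KO control mouse 5. With all mice 5 of the 36 were at an unadjusted p under 0.05, all higher, against 27.7% of all genes. Over the 36 genes, 16 were above and 20 below 0 (52.7% of all genes above), with a median log2 difference of -0.03 against 0.03 over all genes.

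C1qc was at 40.4, 65.5, 44.5, 35 and 56.6 CPM in KO control mice 1 to 5 and 48.7, 59.6, 314, 47.5 and 51.6 CPM in KO Pio mice 11 to 15. Mouse 13 stood far above all others and the remaining Pio mice lay among the controls. The log2 fold change was 1.11 (SE 0.35), with an edgeR adjusted p of 0.0421 and an exact permutation p of 0.317. Lgals3 was at 4.42, 7.24, 5.96, 3.88 and 10.7 CPM and 4.07, 25.5, 46, 5.38 and 5.64 CPM, with mice 12 and 13 high. Its log2 fold change of 1.43 (SE 0.43) had an edgeR adjusted p of 0.0345 and an exact permutation p of 0.357. C1qa (40.5, 51, 256, 40.1 and 44 CPM in KO Pio mice) went from 0.83 to -0.12 without mouse 13, H2-Ab1 from 0.89 to 0.19 and H2-Eb1 from 0.90 to 0.15.

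Mouse 13 did not carry more of all macrophage genes. It was the highest of the 20 KO mice for 6 of the 36 genes and the lowest for 23, and genes of 1 protein complex parted in it. H2-Ab1 was at 172 CPM and H2-Eb1 at 117 CPM, above every other KO mouse, while H2-Aa was at 10.3 CPM and Cd74 at 63.8 CPM, below every other. Per length, the ratio of H2-Aa to its partner chain H2-Ab1 was 0.0406 in mouse 13 and 0.455 to 0.646 in the other KO mice, and that of Cd74 to H2-Ab1 was 0.569 against 3.70 to 5.54. The ratio of C1qa to C1qb was 1.91 against 0.751 to 1.02, and that of C1qc to C1qb 1.27 against 0.477 to 0.570, while H2-Eb1 to H2-Ab1 stayed within the others at 0.900 (0.747 to 0.995). Kupffer cell genes went both ways in it. Clec4f at 32.3 CPM, Timd4 at 2.45 CPM and Vsig4 at 6.75 CPM were each the lowest of the KO mice. So were Cd5l, Adgre1, Cd163 and Mrc1. In the same mouse C1qa, C1qb and C1qc were each the highest, and Marco at 38.9 CPM was above the median of the other KO mice, 18.6 CPM.

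Genes of high and low GC content differed in mouse 13. In the GENCODE M21 annotation of GRCm38, the GC content of the longest transcript was 59.5% for C1qa, 57.5% for C1qc, 57.3% for H2-Ab1 and 55% for Lgals3, against 46.5% for H2-Aa and 44.4% for Timd4. Of the 6 members with at least 55.4% GC, mouse 13 was the highest KO mouse for 4 and the lowest for 1. It was the lowest for all 11 members at 47.2% GC or less. For the 10 members from 51.6% to 55% GC it was the highest for 2, H2-Eb1 and Lgals3, and the lowest for 4, Fcer1g, Clec4f, Cd68 and Tyrobp, so genes of like GC went both ways. The 1 low member above that range was Cd74, at 56.6%. Over all tested genes, the median log2 deviation of genes with at least 55.4% GC, minus that of genes with at most 43.8%, was 3.03 in mouse 13 and -0.0907 to 0.0575 in the other KO mice that do not stand apart. The part of GC content in the 2 calls was not tested apart from leaving the mouse out.

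**Figure D3:**
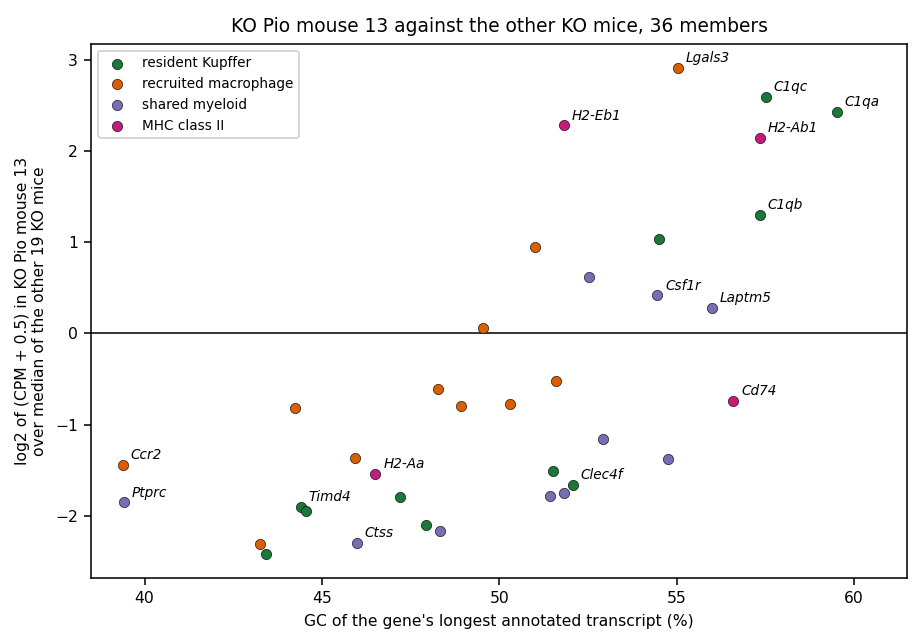
Each dot is 1 of the 36 genes, coloured by class, with the GC content of its longest annotated transcript (x axis, %) and the log2 ratio of KO Pio mouse 13 to the median of the other 19 KO mice (y axis, CPM + 0.5). The C1q chain genes, H2-Ab1, H2-Eb1 and Lgals3 lie above 0, at 51.6% GC or more, while Cd74, Tyrobp, Cd68, Clec4f, Fcer1g and Itgax lie below 0 in the same range, as do the members at 47.2% GC or less.

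With the 5 mice left out, Cd9 was called higher with Pio in KO mice, at a log2 fold change of 0.86 (edgeR adjusted p = 0.0276, 2.44% of all genes called). It was at 15.4, 17.9, 15.4, 17.7 and 16.4 CPM in KO control and 28.4, 40.7, 6.04, 21.3 and 27.8 CPM in KO Pio mice, so that 4 of 5 Pio mice were above all controls and mouse 13 below them. With all mice the difference was 0.59 (SE 0.32) (edgeR adjusted p = 0.237, exact permutation p = 0.159), and limma with quality weights, which reduces the weight of such libraries, called Cd9 and no other member (9.4% of all genes). The same 4 Pio mice were above all 5 KO HFD-Pio mice, at 21.1, 15.1, 16.4, 10.4 and 15.4 CPM. HFD-Pio against Pio gave -0.66 (SE 0.32) with all mice and -0.92 without the 5 (edgeR adjusted p = 0.0316, 0.673% of all genes called). These comparisons share the KO Pio mice.

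In KO mice, HFD-Pio against Pio lowered 1 of the 36 genes by edgeR, Lgals3, at -1.45 (SE 0.43) (edgeR adjusted p = 0.0436, exact permutation p = 0.405, 4.97% of all genes called). At an unadjusted p under 0.05 there were 5 of the 36, all lower, against 24% of all genes. The HFD-Pio mice were at 6.66, 5.87, 4.96, 5.43 and 8.74 CPM, within the range of the 3 low Pio mice and above it. Without mouse 13 it was at -0.70 and not called (edgeR adjusted p = 1). The call was also lost without KO Pio mouse 12 and without any 1 of the 5 HFD-Pio mice (0.0155% to 0.155% of all genes called). Leaving out 1 mouse outside the 2 groups lost it too for KO control 2, WT Pio 844, WT HFD-Pio 837 and WT HFD-Pio 840 (3.56% to 3.66%).

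HFD without Pio moved 0 of the 36 genes in KO mice. Against control diet 30 of the 36 were above 0 (47.3% of all genes), including all 11 Kupffer cell and all 10 shared myeloid genes, with class medians of 0.30 and 0.34. The recruited genes were split, with 6 above and 5 below 0, from -3.69 for Gpnmb to 2.36 for Ly6c2. EdgeR called 0 (0.186% of all genes), with 3 higher and 1 lower at an unadjusted p under 0.05 (4.6% of all genes), and DESeq2 and limma also called 0 (0.41% and 4.2%). HFD-Pio against HFD, which shares the HFD mice, was the reverse, with 29 of the 36 and all 11 Kupffer cell genes below 0 (50.2% of all genes above). There edgeR called 0 (0.0155% of all genes), with 3 lower at an unadjusted p under 0.05 (1.04% of all genes), and DESeq2 and limma called 0 (0.0619% and 0%).

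KO HFD mouse 9 was the highest of the 20 KO mice for 21 of the 36 genes. The integrin gene Itgam (CD11b) was at 1.51, 1.83, 1.5, 21.7 and 3.04 CPM in KO HFD mice 6 to 10, the monocyte gene Ly6c2 at 0.45, 0.412, 0.463, 10.3 and 0.75 CPM and Ccr2 at 1.35, 1.1, 1.16, 13.8 and 2.17 CPM. Mouse 9 stood above the rest for each. Cd14 was at 23.8 CPM in it, Marco at 106 CPM and Cd5l at 273 CPM. Summed neutrophil markers were 261 CPM in mouse 9, against 0.668 to 20.0 CPM in the other KO mice. Class II genes were not high in it, with Cd74 at 91.2 CPM and H2-Ab1 at 25.2 CPM, the lowest KO HFD values of both. Without mouse 9, HFD against control moved Itgam from 1.36 to -0.23, Ly6c2 from 2.36 to 0.12 and Ccr2 from 1.6 to 0.16. Without the 5 mice, 17 of the 36 genes were above 0 in KO HFD against control mice and 26 of the 36 in HFD-Pio against HFD, with medians of -0.01 and 0.07. The part of neutrophils in the values of mouse 9 was not tested.

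Of the genes that define the Kupffer cell none was called in a comparison of 2 groups other than the C1q genes. In WT mice Clec4f was at 125, 66, 125, 79.4 and 65 CPM on control diet and 44.9, 72.3, 104, 69.4 and 70.1 CPM with Pio, and in KO mice at 79.8, 109.7, 91.6, 74.8 and 96.6 CPM and 91.7, 88.5, 32.3, 97 and 104 CPM. In both genotypes the groups overlap, with mouse 841 lowest in WT and mouse 13 lowest in KO mice. The differences were -0.35 (SE 0.23) and -0.13 (SE 0.23), with 95% intervals of -0.83 to 0.12 and -0.60 to 0.34. Timd4, a marker of embryo-derived Kupffer cells, was at 12.6, 4.27, 14.2, 7.15 and 5.02 CPM in WT control, 2.26, 7.35, 12.1, 8.07 and 20.1 CPM in WT Pio and 3.66, 7.12, 4.3, 7.63 and 5.13 CPM in WT HFD-Pio mice. Within WT Pio it ranged from 2.26 to 20.1 CPM, beyond both ends of the other two groups.

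Cd5l, a target of the liver X receptor, was at 81.9, 146, 93.5, 75.3 and 130.3 CPM in KO control, 103, 115, 120.0, 273 and 140.1 CPM in KO HFD and 129, 120.2, 101, 132 and 143 CPM in KO HFD-Pio mice. Apart from mouse 9, the KO HFD mice lay within the range of the other two groups. HFD against control was 0.51 (SE 0.27) with all mice and 0.18 without mouse 9. Marco was the most variable Kupffer cell gene, with 96.1, 32.1, 98.6, 34.4 and 14.3 CPM in WT control and 13.2, 83.9, 9.45, 7.94 and 42.4 CPM in KO control mice, and its groups overlap in both genotypes. Adgre1, which encodes F4/80, ran from -0.68 in WT HFD against control to 0.34 in WT HFD-Pio against HFD mice over the 8 comparisons. The mannose receptor gene Mrc1, which sinusoidal endothelium also expresses, ran from -0.38 to 0.39 in the same comparisons, and Cd163 from -0.36 in KO HFD-Pio against HFD to 0.58 in KO HFD against control mice. All 3 had wide overlap between groups.

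Among the shared myeloid genes, Lyz2 was at 47.2, 91.6, 59.4, 28.2 and 27.1 CPM in WT control and 15.6, 29.4, 36.2, 27.1 and 37.8 CPM in WT Pio mice, with mouse 832 highest. Tyrobp was at 16.4, 8.57, 16.5, 8.86 and 6.26 CPM and 5.29, 7.31, 9.88, 6.74 and 7.35 CPM in the same groups, which overlap. Its exact permutation p was 0.143, and that of Lyz2 0.111. Csf1r, the receptor for the macrophage growth factor CSF1, was at 75, 81.7, 108, 66.3 and 57.1 CPM in WT control and 32.5, 61.7, 74.7, 59.8 and 57.9 CPM in WT Pio mice (-0.44). In KO mice it was at 47.3 to 107 CPM on control diet and 69 to 153 CPM on HFD, with mouse 9 at the top. The cathepsin S gene Ctss, which encodes the protease that trims the invariant chain, ran from -0.37 to 0.24 over the 8 comparisons. The Fc receptor γ chain gene Fcer1g ran from -0.39 to 0.26, Aif1 (IBA1) from -0.23 to 0.35 and Ptprc from -0.31 to 0.37, with 0 called by edgeR for these 4 and 0 at an unadjusted p under 0.05.

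Several recruited and lipid-associated genes were high in single mice, in KO HFD mouse 9 as given above and in 4 mice on control diet. Gpnmb, a transmembrane glycoprotein of lipid-loaded macrophages, was above 5 CPM in 4 of the 20 mice on control diet with or without Pio and in 0 of the 20 on HFD, where the highest value was 1.00 CPM. The 4 were WT control 832 (29 CPM), WT Pio 845 (26.8 CPM), KO control 5 (12.1 CPM) and KO Pio 12 (8.8 CPM), 1 in each group, and the 5 CPM limit was chosen after the values were seen. All other mice had 0.0417 to 2.35 CPM. Mice 832, 5 and 12 were also the highest of their groups for Trem2, the lipid receptor gene, at 7.12, 3.16 and 3.18 CPM, for Itgax (CD11c) at 8.09, 3.95 and 5.72 CPM, and for Cx3cr1 at 6.9, 2.19 and 2.75 CPM. Mouse 845 was the highest WT Pio mouse for these 3 genes too, though lower, at 1.71, 1.82 and 2.04 CPM.

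Group medians lay closer together. From WT control to WT HFD mice, the median of Trem2 went from 1.31 to 0.958 CPM, that of Itgax from 1.19 to 1.05 CPM and that of Gpnmb from 0.269 to 0.303 CPM. The fitted log2 differences were larger, at -1.16 for Trem2, -1.21 for Itgax and -3.93 for Gpnmb in WT HFD against control, none of them called by edgeR. Without mouse 832 they were -0.07, -0.15 and -0.72, and Cx3cr1 went from -1.55 to 0.01. In KO mice Gpnmb was at -3.69 (SE 1.46) for HFD against control, with an exact permutation p of 0.206. Spp1 was at 62.4 CPM in mouse 832 and 19.9 to 25.2 CPM in WT HFD mice, and no comparison called it.

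**Figure D4:**
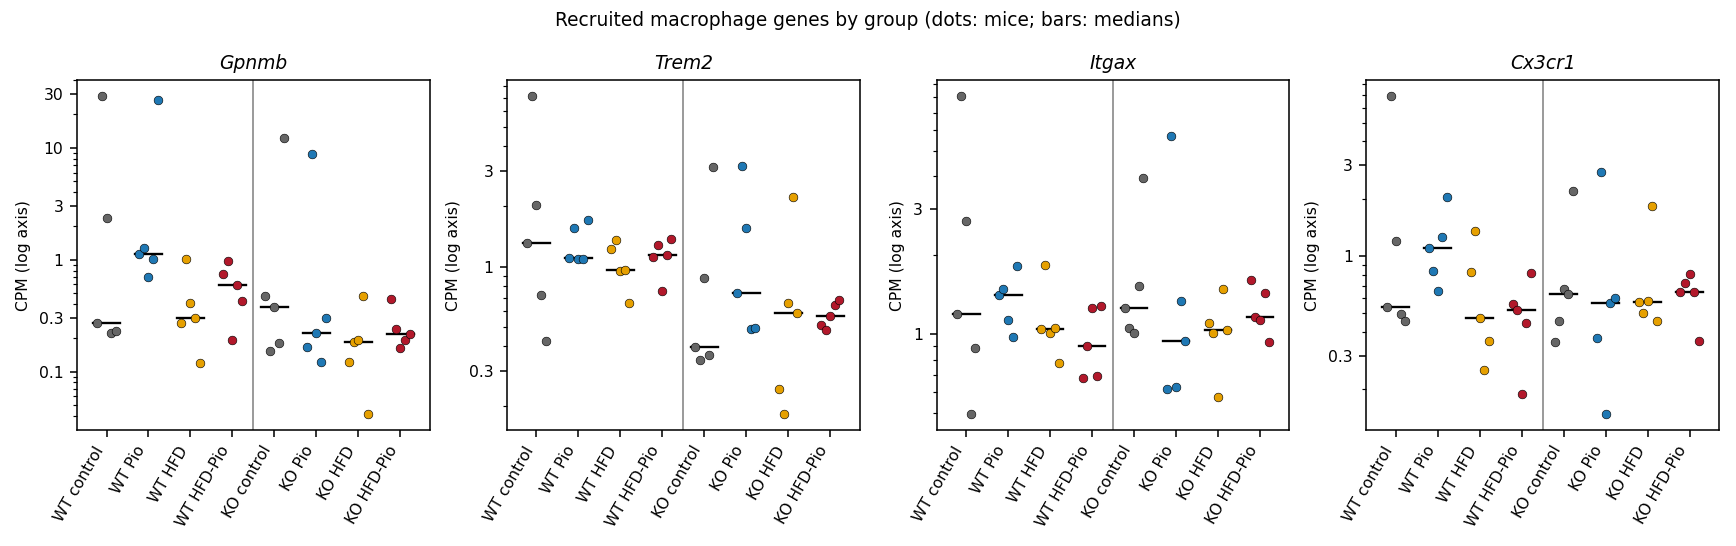
CPM (log axes) of Gpnmb, Trem2, Itgax and Cx3cr1 in each mouse, by group, with bars at group medians. The top dot of the WT control, KO control and KO Pio groups is the same mouse in all 4 panels (832, 5 and 12), and the HFD groups reach at most 1.00 CPM for Gpnmb.

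Class II genes on control diet showed no called change in either genotype. In WT mice, Cd74 was at 103, 213, 145, 93.2 and 118 CPM without and 75.6, 85.1, 81.9, 159 and 150.1 CPM with Pio, with 3 of 5 Pio mice below every control mouse, the other two among them, and a log2 difference of -0.29 (SE 0.23). H2-Aa was at 16.1, 47.6, 20.8, 18.7 and 23.2 and 20.9, 14, 13.5, 30.3 and 13.5 CPM, with mouse 832 the highest of all. The class median was -0.35 with all mice and 0.03 without the 5. In KO mice without the 5, all 4 class II genes were above 0 with Pio, with a median of 0.17 and 0 called by edgeR. Summed B cell markers were 0.482 to 5.13 CPM in KO mice, lowest in mouse 13.

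The difference of the Pio effect between genotypes on control diet was called by edgeR for 3 of the 36 genes, where 7.91% of all genes were called, so 3 of 36 is near the background. The effect in KO minus that in WT mice was 1.54 (SE 0.46) for C1qa, 1.75 (SE 0.49) for C1qc and 2.26 (SE 0.60) for Lgals3, with edgeR adjusted p of 0.0341, 0.027 and 0.0201. Without mouse 13 these were 0.57, 0.75 and 1.51, and edgeR called 0 (5.75% of all genes). At an unadjusted p under 0.05 there were 7 of the 36 with all mice (27.2% of all genes). Without mouse 13 there were 6, and the share of all genes was not counted. In the fit without those 5 mice 1 gene was called, Cd9, at 1.17 (edgeR adjusted p = 0.0195, 7.74% of all genes called), from -0.31 in WT and 0.86 in KO mice. The other 5 interactions, of Pio with diet in WT (0.0773% of all genes called) and KO mice (0%), of Pio with genotype on HFD (0.0928%), and of HFD with genotype without Pio (0.0619%) and with Pio (0.0155%), called 0 of the 36 by edgeR, DESeq2 (at most 1.04% of all genes) or limma (at most 10.7%). At an unadjusted p under 0.05 edgeR gave 1, 4, 2, 5 and 3 of the 36 in the same order, against 12.1%, 12.1%, 5.94%, 9.44% and 19.3% of all genes. The HFD effect without Pio was more positive in KO than in WT mice for 35 of the 36 genes. The median difference was 0.59, against -0.009 over all genes, whose share above 0 was not counted. Without KO HFD mouse 9 alone it was 33 of the 36 with a median of 0.32. Without WT control mouse 832 alone it was 29 of the 36 with a median of 0.51, and without the 5 mice 27 of the 36 with a median of 0.20.

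**Figure D5:**
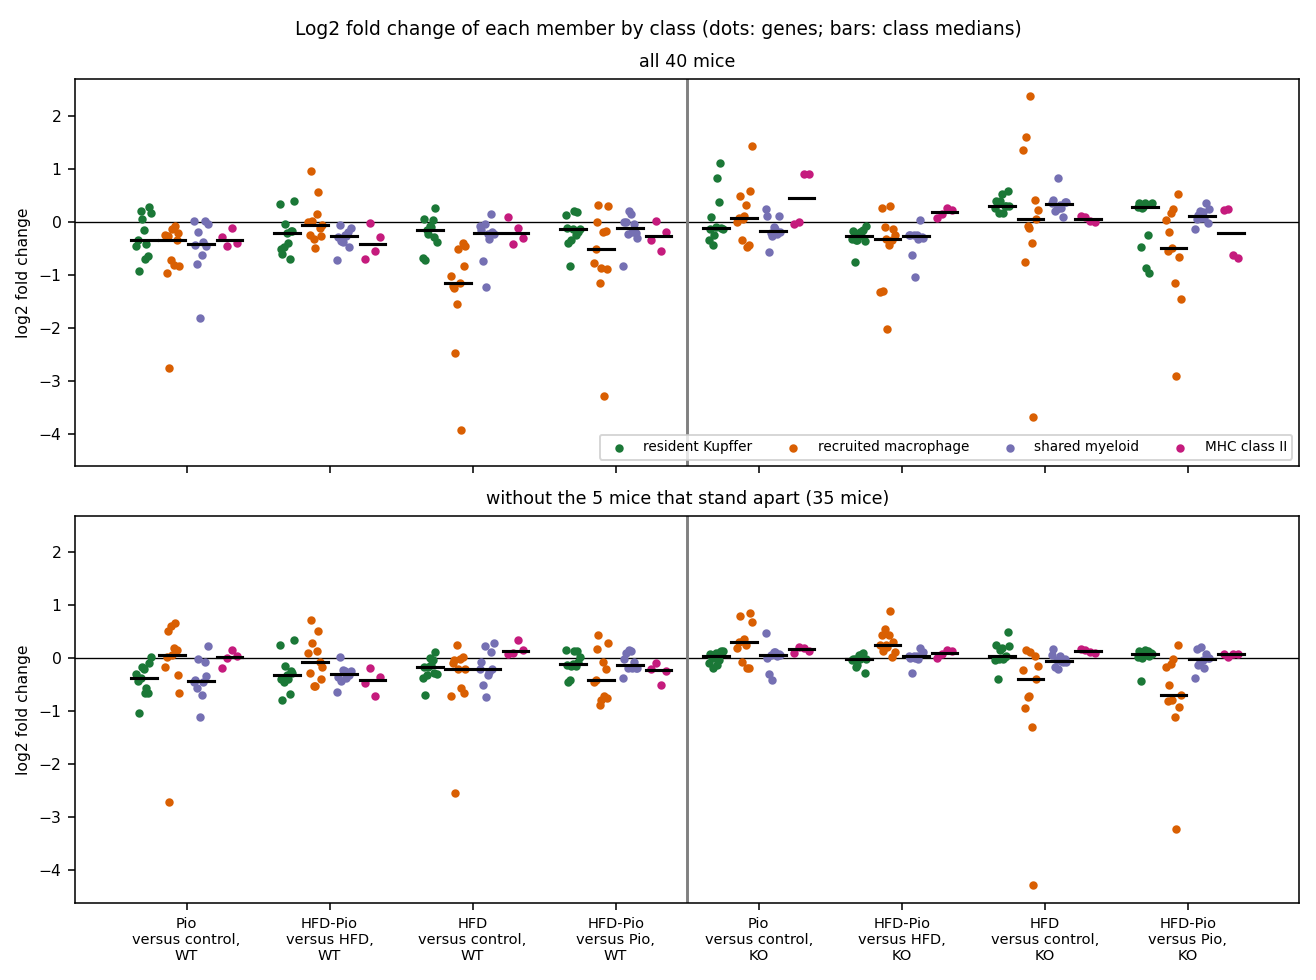
Log2 fold change of each gene (dots) with class medians (bars) in the 8 comparisons of 2 groups, for all 40 mice (top) and the 35 left without the mice that stand apart (bottom). The recruited class median of WT HFD against control lay at -1.16 with all mice and -0.19 below, and the KO class II median for Pio went from 0.44 to 0.17.

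Genes around these 36 were followed in 5 lists, to be read against the 3.89% of all genes that edgeR called for Pio in WT and the 9.06% in KO mice. Of the 10 tested genes of class II regulation and peptide loading, WT mice on Pio had 1 lower, Rfxank, at -0.63 (edgeR adjusted p = 0.0267). Rfxank encodes a subunit of the RFX complex, which binds the X box. The transactivator Ciita was at 0.29 and not called. Of the 13 genes of class I presentation, Pio in KO mice gave 5 higher and 1 lower. The 5 were the transporter genes Tap1 (0.86) and Tap2 (0.91), the tapasin gene Tapbp (1.05) and the immunoproteasome genes Psmb9 (0.76) and Psmb10 (0.88). For each of these the highest value was that of mouse 13, such as 499 CPM of Tapbp against 76.9 to 117 CPM in the other KO mice. The 1 lower was the chaperone gene Calr (-0.61), where all 5 Pio mice were below all 5 controls. Of 23 other macrophage genes, 1 was higher there, Spi1 (the transcription factor PU.1), at 1.44. Of 16 tested cytokine and chemokine genes, Cxcl10 was lower with Pio in WT mice at -1.87 (edgeR adjusted p = 0.0236) and Tgfb1 was higher with Pio in KO mice at 1.48. The Cxcl10 call was lost without the 5 mice, where Ccl6 was called lower instead (14.9% of all genes called). Cxcl10 stayed called without mouse 13 alone (15.5%). Of 18 interferon-induced genes, Irf1 was higher with Pio in KO mice at 0.86. For Pio in WT mice, the fit without the 5 mice called 14.9% of all genes. It called 4 of these 18 higher, Gbp3, Ifit1, Ifit2 and Ifit3, and Rfxank was lower there too. Of the other macrophage genes it called Abca1 and Fcgr4, 1 higher and 1 lower. Leaving out mouse 13 alone, edgeR called Gbp3 and Irf1 of the 18 in WT mice, 1 higher and 1 lower (15.5% of all genes). Without mouse 13, edgeR called 1 gene of the 5 lists for Pio in KO mice, Calr (0.51% of all genes). With all mice, Tapbp was lower in HFD-Pio against Pio KO mice at -0.95. In that fit edgeR called no other gene of these lists in the 8 comparisons of 2 groups.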

How the data were processed

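Gene counts from liver RNA-seq of 40 mice were analysed. The authors selected poly-A RNA, aligned reads to GRCm38 with STAR 2.0.4b and counted unique, unambiguous reads per gene with Subread featureCounts 1.4.5. The deposited values are whole-number counts without normalization, in 1 table per genotype, and a batch that follows genotype cannot be told apart from it. All 40 columns matched a sample (0 did not), 0 pairs of libraries were alike, and the repeated lines (574 WT, 598 KO) differed in 0 genes. Tables were joined by gene identifier (40594 genes), 353 rRNA genes were removed, and the 12930 genes that reached 1 CPM in 5 or more mice were kept. Replicates are separate mice.

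In R 4.3.3, edgeR 4.0.16 (TMM, robust quasi-likelihood fit, 1 mean for each of 8 groups) tested 14 comparisons, with Benjamini-Hochberg adjustment over all genes tested and a call at an adjusted p of at most 0.05. Standard errors and 95% intervals are on the log2 scale. Exact permutation tests (5 against 5 mice, two-sided, 288 in all and not adjusted) used CPM. DESeq2 1.42.0, limma 3.58.1 with sample quality weights, other scalings, no filter, 1 genotype alone and leaving out each mouse were alternatives. Scripts were tested on simulated counts. The members and lists were chosen with earlier results of these data known. All 36 members are accounted for. Those named with values at the main results are members called in any comparison, the class II genes, a fixed set of Kupffer cell and recruited genes and the 3 most abundant of each class, and the other members were named for completeness after their values were seen. From the surrounding lists the called genes with the lowest adjusted p were named, and Psmb10 beyond 4 per list for a complete count. Genes of these lists that the fit without the 5 mice called for Pio in WT mice were named as well. Ciita was named as the regulator.

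Whether counting used the strand is not given in the sources used here, so reads of overlapping opposite-strand genes cannot be told apart for Cd9, Cx3cr1 and Csf1r. Itgam, Spp1 and Cd74 overlap exons of other annotated genes on the same strand, and Ly6c2, Lyz2 and the class II genes have close paralogs, where unique counting can lose reads.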

Additional observations from a re-analysis of the deposited data

Results flagged for a closer look

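Within each group of 5 mice, the highest or lowest value of a gene was set apart where its gap to the next mouse, relative to the range of the group, passed Dixon's 95% critical value. For normally distributed values, chance gives about 1 in 20 groups. The rule was applied to CPM without a log, and whether CPM is normally distributed within groups was not tested. The shares below therefore cannot be read as an excess over 1 in 20. Over 27 named genes and 8 groups, 53 of 216 gene and group pairs passed (24.5%), and over all 36 genes 66 of 288 (22.9%). The mice recur across genes, so these are not 53 separate events.

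KO HFD mouse 9 was high for 18 of the named genes. In CPM these were, among Kupffer cell genes, Adgre1 (50.4), Marco (106), Vsig4 (55.6), Cd5l (273), C1qa (81), C1qb (113) and C1qc (100). Among recruited genes they were Ccr2 (13.8), Ccl2 (2), Cx3cr1 (1.84), Ly6c2 (10.3), Trem2 (2.23), Spp1 (79.2), Cd9 (35.5) and Lgals3 (14.5), and among shared genes Csf1r (153), Lyz2 (113) and Cd14 (23.8). No class II gene of this mouse was set apart, and its summed neutrophil markers were 261 CPM.

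KO Pio mouse 13 was low for Clec4f (32.3 CPM), Timd4 (2.45) and Vsig4 (6.75) and high for C1qa (256), C1qb (140), C1qc (314), H2-Ab1 (172) and H2-Eb1 (117). The 3 differences of the Pio effect between KO and WT mice on control diet that edgeR called, C1qa (1.54), C1qc (1.75) and Lgals3 (2.26) on the log2 scale, involve this mouse.

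WT control mouse 832 was high for Ccr2 (3.15 CPM), Cx3cr1 (6.9), Trem2 (7.12), Gpnmb (29), Spp1 (62.4), H2-Aa (47.6) and H2-Eb1 (54.5). KO Pio mouse 12 was high for Itgax (5.72 CPM), Ccr2 (5.54), Ccl2 (1.97), Cx3cr1 (2.75) and Gpnmb (8.8), and KO control mouse 5 for Itgax (3.95), Ccr2 (2.91), Cx3cr1 (2.19), Trem2 (3.16) and Gpnmb (12.1). KO control mouse 2 was high for Timd4 (22 CPM) and Cd14 (9.44).

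Single genes set other mice apart. KO HFD-Pio mouse 18 was low for Timd4 (8.06 CPM) and Csf1r (66.6), while mouse 16 of that group was high for Gpnmb (0.444) and mouse 20 for Cd14 (7.66). WT Pio mouse 845 was high for Gpnmb (26.8 CPM), WT control mouse 833 for Vsig4 (26.2), WT HFD mouse 827 for Itgax (1.83) and WT HFD-Pio mouse 840 for H2-Aa (22.9).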

How the results depend on the processing

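No paired analysis was possible because the mouse numbers are unique and no groups share one. Counts of the 36 genes called changed as follows, with the share of all genes called in brackets. DESeq2 called 2 for WT HFD against control (2.91%). Limma with quality weights called 0 for WT Pio (23.9%), 2 for WT HFD-Pio against Pio (22.7%), 1 for KO Pio (9.4%) and 1 for the Pio difference between genotypes on control diet (15.4%). Library size alone, which shifts the median of all genes by -0.19 for WT Pio and -0.16 for WT HFD, called 1 for WT HFD (2.2%), 0 for KO HFD-Pio against Pio (1.25%) and 4 for the genotype difference (12.4%, with H2-Eb1). Without a filter there were 1 for WT Pio (1.14%), 0 for KO Pio (2.94%), 0 for KO HFD-Pio against Pio (0.291%) and 2 for the genotype difference (2.03%). With 1 genotype alone the first 3 of these were 4 (7.16%), 0 (0%) and 0 (0%). Without the 5 mice, an alternative chosen after seeing the data, there were 3 for WT Pio (14.9%). There was 1 each for WT HFD-Pio against HFD (11.4%), WT HFD-Pio against Pio (7.07%), KO Pio (2.44%) and the genotype difference (7.74%). DESeq2 size factors within edgeR changed none of these counts.

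Leaving out each mouse gave 1 to 4 for WT Pio (1.62% to 15.5% of all genes called) and 0 to 5 for KO Pio (0.51% to 17.9%). It gave 0 to 1 for WT HFD-Pio against HFD (0.302% to 11.6%), WT HFD (0.449% to 6.57%) and WT HFD-Pio against Pio (0.371% to 8.68%). For KO HFD-Pio against Pio it was 0 to 3 (0.0155% to 15.7%) and for the Pio difference on control diet 0 to 4 (4.18% to 15.2%). The HFD difference with Pio had 0 to 1 (0.00773% to 3.09%), and elsewhere there were 0 (at most 5.2%). The highest count for WT Pio came without mouse 13, when C1qa and C1qc joined Ccl2 and Cd14, with 15.5% of all genes called. That for KO Pio came without KO Pio mouse 11, 14 or 15, with 16.1% to 17.9% of all genes called.

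Signs turned as follows on the log2 scale. In limma these were Itgax (0.44) and Cx3cr1 (0.0411) for WT HFD, C1qa for KO Pio (-0.15), Itgam (0.20) and Ly6c2 (0.0739) for KO HFD-Pio against HFD, Itgam for KO HFD (-0.14), and C1qa (0.11), C1qc (0.0362) and Lgals3 (0.0021) for KO HFD-Pio against Pio. With the 5 mice left out they were Cx3cr1 for WT HFD (0.25), C1qa for KO Pio (-0.12), Itgam (0.25), Ly6c2 (0.23) and Cd14 (0.0114) for KO HFD-Pio against HFD, Itgam for KO HFD (-0.22), and C1qa (0.0963) and C1qc (0.0372) for KO HFD-Pio against Pio. Leaving out each mouse in turn, Cx3cr1 for WT HFD ranged from -2.01 to 0.0122 (highest without mouse 832). For KO HFD-Pio against HFD, Itgam ranged from -1.58 to 0.25, Ly6c2 from -2.31 to 0.23 and Cd14 from -1.47 to 0.0107, and for KO HFD Itgam from 1.602 down to -0.23, all turned without mouse 9. C1qa for KO Pio ranged from -0.12 to 1.02, and for KO HFD-Pio against Pio C1qa ranged from -1.06 to 0.0963 and C1qc from -1.16 to 0.0372, turned without mouse 13, and Gpnmb from -3.23 to 0.30, turned without mouse 12. In the fits without the 5 mice, edgeR called Cd9 instead of C1qc and Lgals3 for KO Pio, and Cd9 instead of Lgals3 for KO HFD-Pio against Pio. The causes were not tested beyond these mice. Recruited genes have few counts, which limits their precision.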
